A study of Homo sapiens with 4 samples.

Results

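The N-glycan biosynthesis genes of OMM2.3 cells were described in their transcript levels and their N6-methyladenosine (m6A) peaks. OMM2.3 is an established human uveal melanoma cell line. The members were the genes whose pathway annotation in the gene table names N-glycan biosynthesis, and 55 of the 14416 listed genes did. Of these, 48 carried the pathway N-Glycan biosynthesis itself, and 7 carried only the pathway of various types of N-glycan biosynthesis. The rule used this annotation and no measured value, but the set was taken up with earlier results of these data known, so all values are given as descriptions.

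Cells of the genotype the labels call wild type received either meclofenamic acid (MA) or the solvent DMSO (the control, NC) over 24 h. No source used here gives the drug's dose. The drug belongs to the nonsteroidal anti-inflammatory class and is also known to inhibit FTO, an m6A demethylase. Each condition had 1 input library of fragmented poly(A) RNA and 1 library immunoprecipitated with an antibody to m6A, 4 libraries in all. With 1 library per group no difference had a replicate check, no p-value was computed, and an effect of the drug and a difference between any 2 cultures cannot be told apart. In bulk RNA, fewer cells of a type and less RNA per cell cannot be told apart either.

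The input totals recovered from the values were 41630895 reads or fragments in MA and 37041597 in NC. All 7 melanocyte lineage markers reached 1 FPKM, a unit that relates fragments to transcript length and library size, with a summed level of 3172 FPKM in MA and 7307 in NC. Of 4 fibroblast markers in the table LUM alone reached 1 FPKM, with 12.03 FPKM in MA cells and 4.96 FPKM in NC cells. The other fibroblast markers COL1A1, DCN and PDGFRA were at 0.106 FPKM or less in both, and no immune, endothelial or epithelial marker in the table reached 1 FPKM. Their part in the differences below was not tested. Over all 10564 genes that reached 1 FPKM in either input, the median log2 difference was 0.11.

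N-glycosylation begins on the lipid dolichol phosphate in the endoplasmic reticulum membrane. Cytosolic enzymes place the first sugars on it, the precursor is flipped into the lumen and completed there with sugars donated by dolichol-linked mannose and glucose, and the oligosaccharyltransferase moves the finished glycan to asparagine residues of new proteins. Glucosidases and mannosidases then trim the glycan during folding and in the Golgi, where N-acetylglucosaminyltransferases start its branches and galactosyl-, fucosyl- and sialyltransferases cap them. Altered branching and sialylation of N-glycans on adhesion molecules and receptors are known features of melanoma cells.

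Of the 55 members, 50 reached 1 FPKM in either input and were compared. More of them were lower than higher in MA: 32 were below and 18 above 0 on the scale log2((MA FPKM + 1)/(NC FPKM + 1)), with a median of -0.29. Over all tested genes 43.3% were below 0. No member was higher by 2-fold or more, where 10.3% of all tested genes were, and 2 members were lower by 2-fold or more, where 2.98% of all tested genes were. The 2 were MGAT5B and MAN2A2. In what follows, levels are in FPKM and the first value in parentheses after them is the log2 difference on this scale. Differences went from -1.17 to 0.95, and those of all tested genes from -4.16 to 4.77. The pseudocount of 1 shrinks the difference of genes at low levels, so that ALG10 and ALG10B, at 3.24 and 2.80 times their NC value, were not counted as 2-fold higher. They were with a pseudocount of 0.1, and together with DPM1 also after rescaling to TPM, transcripts scaled to a common sum per library, where 17.0% of all tested genes were.

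**Figure D1:**
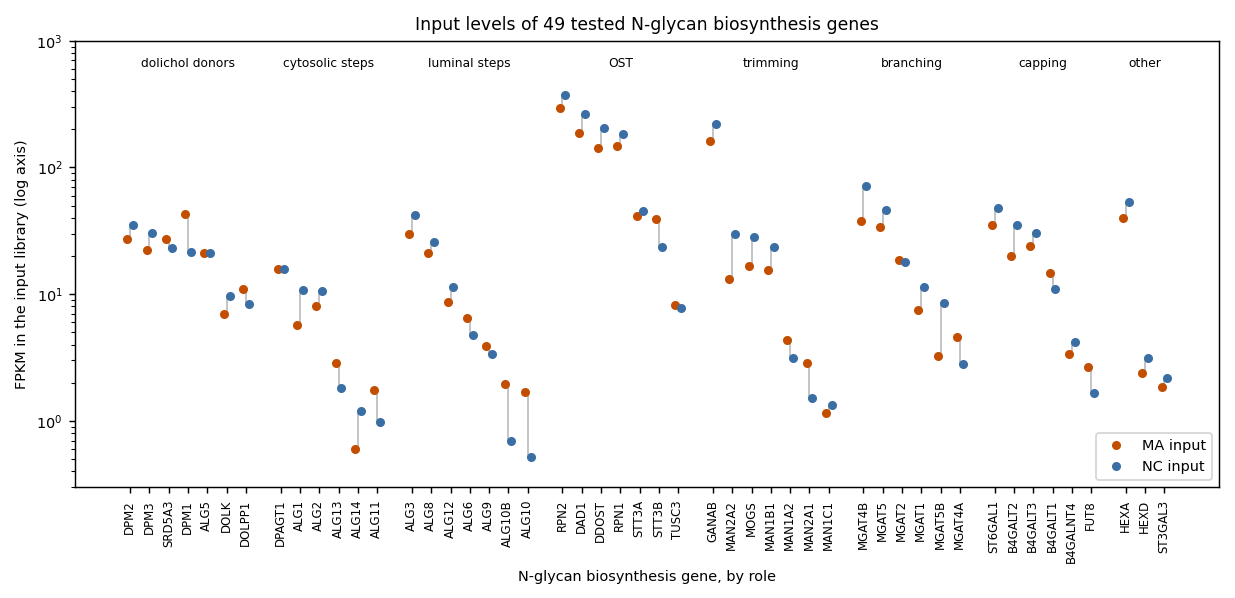
Level of 49 tested members in FPKM (vertical log axis) in the MA input (orange) and the NC input (blue), grouped by role along the horizontal axis, with 1 point per library and a grey line joining the pair. The oligosaccharyltransferase subunits RPN2, DAD1, DDOST and RPN1 and the glucosidase subunit GANAB are the highest, from 141 FPKM upwards in both inputs.

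The exact 95% counting interval of the FPKM ratio lay above 0 on the log2 scale in 15 of the 50 members, below 0 in 30 and across 0 in 5. Over the 10562 tested genes with recovered reads it lay above 0 in 50.2%, below 0 in 36.7% and across 0 in 13.1%. These intervals cover the counting of reads and no variation between cultures or preparations. The differences moved with level. Of the 27 members averaging 10 FPKM or more, 21 were below and 6 above 0 (median -0.42). Of the 5223 tested genes at such levels, 46.0% were above 0 (median -0.06). Of the 23 members under that level, 11 were below and 12 above 0 (median 0.08). Of the 5341 tested genes under it, 67.2% were above 0 (median 0.30). The differences moved with transcript length as well. Among the shortest genes (recovered length up to 2443 bp), 12 of 15 members were below 0 (median -0.42, all genes -0.04), and among the longest genes (over 4809 bp) 8 of 17 were (median 0.16, all genes 0.28). The share of all genes below 0 was not counted by length class. In a comparison added after the values were seen, the members' median stayed below 0 relative to tested genes of the same length class (-0.38) and relative to genes of the same level class (-0.26).

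**Figure D2:**
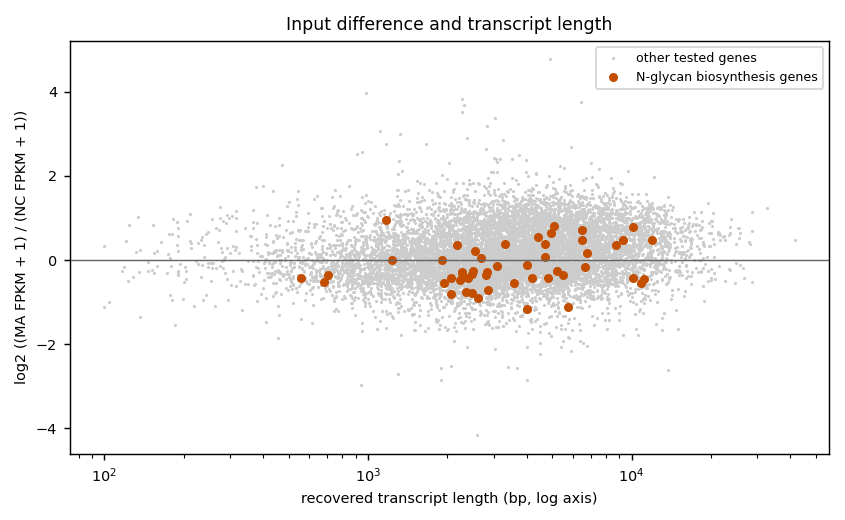
Log2 difference of each tested gene (vertical axis, pseudocount 1 FPKM) against its recovered transcript length in bp (horizontal log axis), with members in orange and all other tested genes in grey, 1 point per gene. Members lie between -1.17 and 0.95, and the grey cloud shifts upwards with length, with a median of -0.04 in the shortest class and 0.28 in the longest.

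Among the genes that supply dolichol phosphate and dolichol-linked sugars, DPM1 stood apart from its partners. DPM1, the catalytic subunit of dolichol-phosphate mannose synthase, had 42.9 FPKM in MA cells and 21.7 FPKM in NC cells (0.95, log2 ratio 0.99, interval 0.87 to 1.10). With the pseudocount of 1 this was the highest difference of all members. Without a pseudocount, the log2 ratios of ALG10 (1.70) and ALG10B (1.49) were higher. The small membrane subunits of the synthase were lower. DPM2 had 27.3 FPKM in MA cells and 34.9 FPKM in NC cells (-0.34), and DPM3 had 22.4 in MA cells and 30.6 in NC cells (-0.43). The level of DPM1 over that of DPM3 was 1.91 in MA and 0.708 in NC. This ratio of 2 genes does not depend on how the libraries are scaled.

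The other donor genes lay within a narrow range. DOLPP1, which recycles dolichyl pyrophosphate, was at 11.1 FPKM in MA cells against 8.41 FPKM in NC cells (0.36), and SRD5A3, the polyprenol reductase that makes dolichol, at 27.0 in MA cells against 23.0 in NC cells (0.22). ALG5, which makes dolichyl-phosphate glucose, was at 21.1 in MA cells against 21.2 in NC cells (-0.01, counting interval across 0, and above 0 as TPM or relative to genes of like length or level). The dolichol kinase DOLK was at 6.94 in MA cells against 9.63 in NC cells (-0.42). Of the 7 members of this group 3 were above and 4 below 0, none at 2-fold.

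In the cytosolic steps, 3 of 6 members were above and 3 below 0, and the median was -0.17. DPAGT1, the first enzyme and the target of tunicamycin, was at 15.7 FPKM in both inputs (log2 difference 0.003). ALG13 and ALG14 together form the enzyme of the next step, in which ALG13 is the catalytic and ALG14 the membrane subunit. ALG13 had 2.89 FPKM in MA cells and 1.81 FPKM in NC cells (0.47), and ALG14 had 0.604 in MA cells and 1.19 in NC cells (-0.45), so this pair differed in opposite directions. Relative to genes of like level ALG13 moved to 0.10 and ALG14 to -0.82. Of the mannosyltransferases that follow, ALG1 was at 5.73 in MA cells against 10.8 in NC cells (-0.81), ALG2 at 8.11 in MA cells against 10.6 in NC cells (-0.34) and ALG11 at 1.75 in MA cells against 0.983 in NC cells (0.47). Relative to genes of like level ALG1 was at -1.01, ALG2 at -0.54 and ALG11 at 0.09. Every ALG1 peak overlaps a peak assigned to EEF2KMT, and 6 of the 7 MA peaks and 6 of the 8 NC peaks of ALG11 overlap peaks assigned to UTP14C. How the counting assigned reads in these overlapping stretches, by strand or otherwise, is unknown. The values of ALG1 and ALG11 are therefore uncertain.

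The luminal steps split by the level of the gene. ALG3, the first luminal mannosyltransferase, had 29.9 FPKM in MA cells and 42.3 FPKM in NC cells (-0.49), ALG8 had 21.2 in MA cells against 25.6 in NC cells (-0.26) and ALG12 had 8.65 in MA cells against 11.3 in NC cells (-0.35). The others were higher in MA and at lower levels, where all genes together also lay higher. ALG6, which adds the first glucose, was at 6.48 in MA cells against 4.76 in NC cells (0.38) and ALG9, a mannosyltransferase, at 3.93 in MA cells against 3.40 in NC cells (0.17). Relative to genes of like length ALG9 turned to -0.12, and relative to genes of like level ALG9 turned to -0.13 and ALG6 moved to 0.11. ALG10 and ALG10B, which add the last glucose, were at 1.68 in MA cells against 0.519 in NC cells (0.82) and 1.94 in MA cells against 0.695 in NC cells (0.80). Relative to genes of like level ALG10 moved to 0.44 and ALG10B to 0.42. These copies are nearly identical, so the share of reads each received is uncertain. Behind ALG10 stood at least 357 reads in MA and 98 in NC, and the log2 ratio without a pseudocount was 1.70 (1.37 to 2.03), with 1.49 (1.28 to 1.69) for ALG10B.

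The oligosaccharyltransferase held the most abundant members, and 5 of its 7 listed subunits were lower in MA. The rule took 7 of the 12 subunits named for this group, so the complex is covered only in part. RPN2 had 297 FPKM in MA cells and 371 FPKM in NC cells (-0.32), RPN1 had 148 in MA cells and 182 in NC cells (-0.29), DAD1 had 185 in MA cells and 264 in NC cells (-0.51) and DDOST had 141 in MA cells and 206 in NC cells (-0.54). These are shared, non-catalytic subunits of the complex, and all 4 differed by well under 2-fold. Relative to genes of like level, the median of the 7 moved to -0.09, beside -0.29 without that step, with RPN2 at -0.09, RPN1 at -0.07 and STT3A at 0.00, while DAD1 was at -0.28 and DDOST at -0.31. The catalytic subunits did not move together. STT3A, which glycosylates proteins during translation, was at 41.3 in MA cells against 45.6 FPKM in NC cells (-0.14). STT3B, which also acts after translation, was at 39.2 in MA cells against 23.6 in NC cells (0.71). The level of STT3B over STT3A was thus 0.9498 in MA and 0.517 in NC, a log2 change of 0.88 (95% Wald interval from the recovered reads 0.80 to 0.95). Relative to genes of like length STT3B was at 0.43 and STT3A at -0.25, and relative to genes of like level STT3B was at 0.85. TUSC3, an oxidoreductase subunit of STT3B complexes, was at 8.28 in MA cells against 7.78 in NC cells (0.08, counting interval across 0, and below 0 after median rescaling or relative to genes of like length or level).

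**Figure D3:**
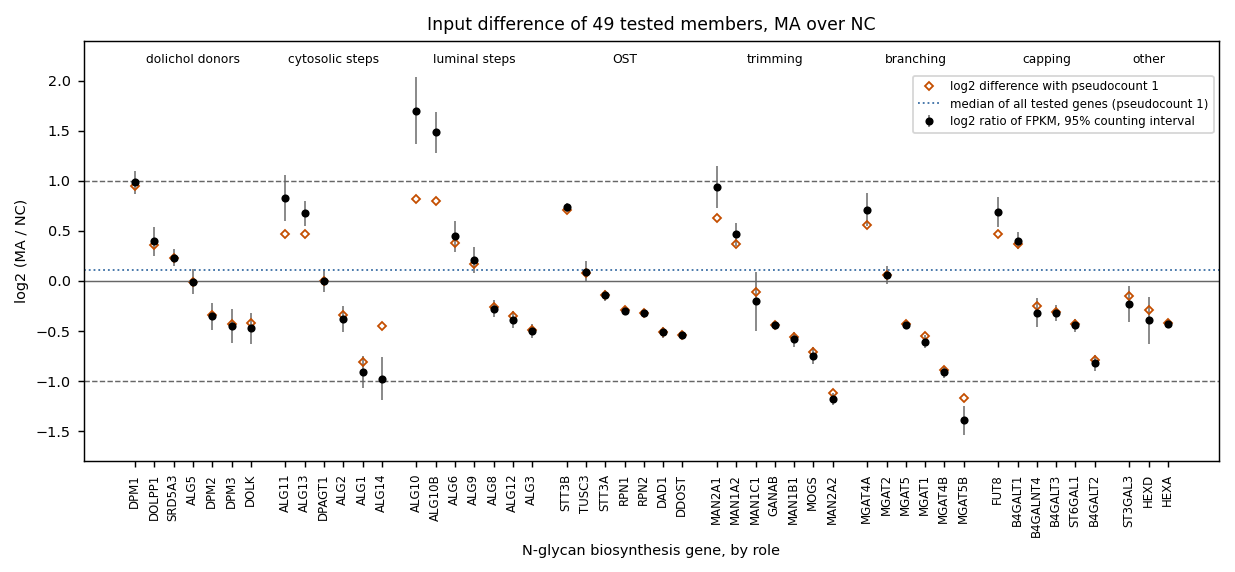
Log2 of MA over NC (vertical axis) for 49 tested members by role, as the ratio of FPKM with its exact 95% counting interval (black) and as the difference with a pseudocount of 1 (orange diamonds). Dashed lines mark 2-fold and the dotted line the median of all tested genes, 0.11; MAN2A2 and MGAT5B are the diamonds below the lower dashed line.

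The trimming enzymes had a median of -0.44, with 5 of 7 tested members below 0. MOGS and GANAB, of glucosidases I and II, which remove glucose after transfer, were at 16.7 FPKM in MA cells against 28.1 FPKM in NC cells (-0.71) and at 161 in MA cells against 219 in NC cells (-0.44). MAN1B1, the mannosidase of the early secretory pathway, was at 15.6 in MA cells against 23.4 in NC cells (-0.56). Of the Golgi class I mannosidases, MAN1A2 was at 4.33 in MA cells against 3.13 in NC cells (0.37) and MAN1C1 at 1.16 in MA cells against 1.33 in NC cells (-0.11, counting interval across 0). Relative to genes of like level MAN1A2 moved to 0.08 and MAN1C1 to -0.49. MAN1A1 stayed under 1 FPKM, with at least 31 reads in MA and 2 in NC, a log2 ratio of 3.79 with a counting interval of 1.81 to 6.89.

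The Golgi alpha-mannosidases II, which act after MGAT1, differed in opposite directions. MAN2A2 had 13.2 FPKM in MA cells and 29.9 FPKM in NC cells, lower by 2-fold or more (-1.12; log2 ratio -1.18, interval -1.24 to -1.12). MAN2A1, at the lower level, was at 2.88 in MA cells and 1.50 in NC cells (0.63). Relative to genes of like level MAN2A1 was at 0.27 and MAN2A2 at -1.10. The level of MAN2A1 over MAN2A2 was 0.219 in MA and 0.0503 in NC, a log2 change of 2.12 (Wald interval 1.91 to 2.34), the most of the 8 pairs of related members compared. It was 1.62 (1.45 to 1.80) for MGAT4A over MGAT4B and 1.22 (1.10 to 1.33) for B4GALT1 over B4GALT2, and lowest for ALG6 over ALG8, at 0.72 (0.55 to 0.89). The pairs, and which gene of a pair stands on top, were chosen after the values were seen.

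**Figure D4:**
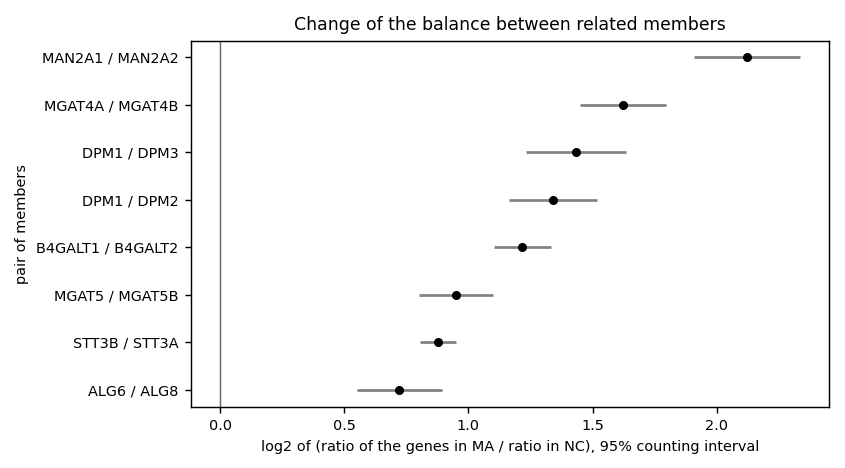
Log2 change of the ratio between 2 related members (MA over NC, horizontal axis) with its 95% Wald counting interval, for the 8 pairs named on the vertical axis as first gene over second gene. Each pair was set so that the gene with the higher MA over NC ratio is first, so all points lie above 0; they go from 0.72 for ALG6 over ALG8 to 2.12 for MAN2A1 over MAN2A2.

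Branching enzymes held the lowest member. MGAT5B, a relative of the branching enzyme MGAT5 that is known mostly from the brain, had 3.27 FPKM in MA cells and 8.58 FPKM in NC cells (-1.17; log2 ratio -1.39, interval -1.54 to -1.25). MGAT5, which starts the branch tied to metastasis in other cancers, was at 34.0 in MA cells against 46.3 in NC cells (-0.43). MGAT1, the enzyme that opens the way to hybrid and complex glycans, was at 7.53 in MA cells against 11.5 in NC cells (-0.55), and MGAT2, which starts the second antenna, at 18.6 in MA cells against 17.9 in NC cells (0.06, counting interval across 0, and below 0 after median rescaling or relative to genes of like length). The MGAT4 enzymes went apart like the mannosidases. MGAT4B was at 38.0 in MA cells against 71.5 FPKM in NC cells (-0.89), and MGAT4A at 4.58 in MA cells against 2.79 in NC cells (0.56). MGAT4B was lower by 2-fold or more after rescaling to a median difference of 0 over all genes, or relative to genes of like length. Relative to genes of like level MGAT4B was at -0.75 and MGAT4A at 0.27. Their ratio, MGAT4A over MGAT4B, was 0.120 in MA and 0.0391 in NC. MGAT3, the bisecting enzyme, was at 0.00435 FPKM in MA and listed at 0 in NC. MGAT4D was at 0.00674 FPKM in MA and listed at 0 in NC, so neither was compared.

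Of the 6 tested members listed in the capping group 4 were lower and 2 higher in MA, none by 2-fold. The sialyltransferase ST3GAL3 was not listed in this group and is given with the remaining members. ST6GAL1, also a sialyltransferase, had 35.4 FPKM in MA cells and 48.2 FPKM in NC cells (-0.43). Of the galactosyltransferases, B4GALT2 was at 20.0 in MA cells against 35.2 in NC cells (-0.78), B4GALT3 at 24.1 in MA cells against 30.2 in NC cells (-0.31) and B4GALT1 at 14.6 in MA cells against 11.0 in NC cells (0.37). FUT8, which adds the core fucose, was at 2.68 in MA cells against 1.66 in NC cells (0.47, and 0.10 relative to genes of like level). B4GALNT4, which caps with N-acetylgalactosamine, was at 3.35 in MA cells against 4.17 in NC cells (-0.25), while its relative B4GALNT3 and the sulfotransferase CHST8 stayed under 1 FPKM in both inputs. The 4 remaining members were all lower in MA, none by 2-fold. Among them, HEXA was at 39.8 in MA cells against 53.6 in NC cells (-0.42), HEXD at 2.37 in MA cells against 3.12 in NC cells (-0.29) and the sialyltransferase ST3GAL3 at 1.87 in MA cells against 2.19 in NC cells (-0.16). HEXA acts in the lysosome on glycoconjugates.

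With a pseudocount of 1, the 2 members lower by 2-fold and DPM1 mark both ends of the differences. Their 250 bases before the annotated start are therefore printed (RefSeq, GRCh38.p14, 5′ to 3′ on the gene's strand). They lie at chr15:90902415-90902664 (plus strand, MAN2A2), chr17:76872397-76872646 (plus strand, MGAT5B) and chr20:50958533-50958782 (minus strand, DPM1). Capitals mark a match to the CCAAT box, in MGAT5B as its reverse complement.
MAN2A2: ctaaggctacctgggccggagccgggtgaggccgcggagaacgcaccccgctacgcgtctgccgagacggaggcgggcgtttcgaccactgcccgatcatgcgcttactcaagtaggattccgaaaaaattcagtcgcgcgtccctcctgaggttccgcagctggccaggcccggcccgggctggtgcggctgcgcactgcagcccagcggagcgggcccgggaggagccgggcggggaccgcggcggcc
MGAT5B: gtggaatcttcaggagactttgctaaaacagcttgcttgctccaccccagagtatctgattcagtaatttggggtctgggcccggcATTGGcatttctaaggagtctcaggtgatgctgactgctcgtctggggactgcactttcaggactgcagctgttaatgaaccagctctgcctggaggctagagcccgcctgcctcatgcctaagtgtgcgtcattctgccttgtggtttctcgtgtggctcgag
DPM1: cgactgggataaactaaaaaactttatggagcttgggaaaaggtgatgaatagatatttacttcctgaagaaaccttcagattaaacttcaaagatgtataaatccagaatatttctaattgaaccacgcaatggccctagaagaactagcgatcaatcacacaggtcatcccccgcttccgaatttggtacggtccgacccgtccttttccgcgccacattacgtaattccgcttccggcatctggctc
The MAN2A2 stretch has a GC content of 71.6%, that of MGAT5B 53.6% and that of DPM1 43.6%. RefSeq promoters of 250 bases before to 50 after the start were matched for 44 members and searched on both strands. The CCAAT box (CCAAT) was in 21 of the 44 (47.7%), beside 35.7% of 27305 promoters of all genes. The E-box (CACGTG) was in 6 (13.6%), beside 7.43%. The 27305 promoters were not limited to the listed or tested genes. The endoplasmic reticulum stress element (CCAAT, then 9 bases of any kind, then CCACG, so that it contains a CCAAT box) was in ALG12 alone, beside 0.0806% of all promoters. Its match is printed with the fixed letters in capitals.
ALG12: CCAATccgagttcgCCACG
It lies at chr22:49918554-49918572 on the minus strand and starts 134 bases before the annotated start. In the 3 printed stretches the search matched 1 CCAAT box, in MGAT5B. A match describes letters and shows no bound site.

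Genes around the pathway lay near all tested genes in the inputs. The list held nucleotide sugar supply and glycoprotein quality control genes that the rule did not take, and 30 were tested. Of these, 18 were above and 12 below 0, with a median of 0.19, beside 5991 above and 4573 below 0 and a median of 0.11 over all 10564 tested genes. By 2-fold, 2 were higher and none lower, where 10.3% of all tested genes were higher and 2.98% lower. GFPT1, the rate-limiting enzyme of the hexosamine pathway that feeds UDP-N-acetylglucosamine, had 45.4 FPKM in MA cells and 9.80 FPKM in NC cells (2.10). UAP1, which makes UDP-N-acetylglucosamine in the last step of that pathway, was at 12.8 in MA cells against 6.34 in NC cells (0.91). LMAN1, a lectin that carries glycoproteins out of the endoplasmic reticulum, was at 47.6 in MA cells against 20.0 in NC cells (1.21), and UGGT2, of the family of folding sensors, at 6.91 in MA cells against 3.03 in NC cells (0.97).

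The authors' peak lists, 1 for MA and 1 for NC, gave 65 member peaks in 35 genes for MA and 68 member peaks in 39 genes for NC. The lists do not hold a replicate, so a peak in a single list has no check. Of the 50 tested members, 35 had a peak in the MA list and 38 in the NC list, shares of 70.0% and 76.0%. Over all tested genes these shares were 80.0% in MA and 83.3% in NC. Members with peaks in the MA list only were ALG8 and MAN2A1. Those in the NC list only were ALG5, B4GALNT4, DPM3, MGAT3, MGAT5B and TUSC3, of which MGAT3 was not among the tested genes. Of all tested genes, 4.04% had a peak only in the MA list and 7.29% only in the NC list. With equal numbers of peaks in both lists the same 8 genes had peaks in 1 list. With only peaks that lie within 1 exon, ALG10B and B4GALT1 took the place of ALG8 and MAN2A1 as genes of the MA list only (7.78% of all tested genes). Those of the NC list only were then ALG9, B4GALNT4, DPM3, FUT8, MGAT3, MGAT5B, STT3B and TUSC3 (13.4% of all tested genes).

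**Figure D5:**
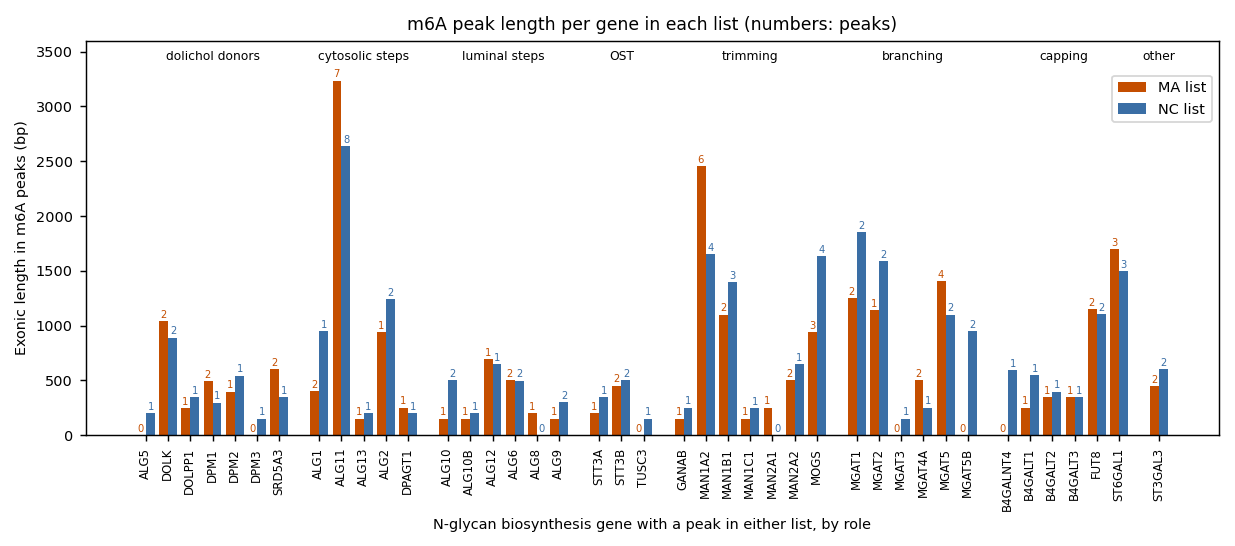
Total exonic length in m6A peaks in bp (vertical axis) for each member with a peak, by role, with bars for the MA list (orange) and the NC list (blue) starting at 0 and the number of peaks above each bar. ALG11 has the most, 3236 bp in 7 MA peaks and 2641 bp in 8 NC peaks, most of which overlap peaks assigned to UTP14C. The oligosaccharyltransferase group has 3 genes, none above 501 bp.

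Of the 5 members averaging 100 FPKM or more, GANAB alone had a peak, while RPN1, RPN2, DDOST and DAD1 had none in either list. Of the 587 tested genes at such levels, 62.2% had one. Between 10 and 100 FPKM, 18 of 22 members had a peak, beside 86.6% of genes, and ALG3, HEXA and MGAT4B were among those with none. Between 1 and 10 FPKM, 21 of 22 had a peak, beside 91.4%. By role, 5 of the 7 dolichol donor genes had a peak in MA and all 7 in NC, and 2 of 7 oligosaccharyltransferase genes had one in MA and 3 in NC. Of all tested genes 80.0% had one in MA and 83.3% in NC. The 4 oligosaccharyltransferase genes with no peak were RPN1, RPN2, DDOST and DAD1, all above 100 FPKM.

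Member peaks lay mostly in the 3' untranslated region. In MA 53.8% did so (35 of 65 peaks, exact 95% interval 41.0 to 66.3%) and in NC 51.5% (35 of 68, 39.0 to 63.8%), beside 42.9% of all MA and 42.2% of all NC peaks. The intervals take each peak as independent, though the member peaks came from 35 genes in MA and 39 in NC. They can therefore be too narrow. Peaks the authors annotated as exon made up 21.5% of member peaks in MA and 20.6% in NC, and of all peaks 34.0% and 33.8%. A start codon was named for 3 MA and 6 NC member peaks (4.62% and 8.82%), beside 4.78% of all MA and 6.06% of all NC peaks. Median exonic length of member peaks was 296 bp in MA and 348 bp in NC, beside 300 bp and 299 bp over all peaks.

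Most peaks had a partner in the other list, overlapping by at least 1 bp on the same strand. In MA 52 of 65 member peaks did (80.0%, 68.2 to 88.9%) and in NC 51 of 68 (75.0%, 63.0 to 84.7%). These intervals also take each peak as independent. Over all peaks, 20.3% in MA and 26.2% in NC had no partner. Peaks without a partner were shorter among members as among all peaks. Member peaks without one had a median of 151 bp in MA and 199 bp in NC, and those with one 324 bp in MA and 350.0 bp in NC. The same medians over all peaks without one were 200.0 bp (MA) and 199 bp (NC), and with one 351 bp (MA) and 350.0 bp (NC). Overlap was taken over the whole span of a peak, with its introns. Of the 33 members with peaks in both lists, 3 (9.09%) had no overlapping peak, namely ALG9, ALG13 and MAN1C1. Of the 8026 tested genes with peaks in both lists 3.07% had none.

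The fold enrichment of immunoprecipitate over input is the authors' own value for each peak and is used here within a list. In the MA list the highest member peak was in the 3' untranslated region of MGAT4A (chromosome 2, 98621248 to 98621597, fold 10.0). All peak positions are on GRCh38.p13. FUT8 (chromosome 14, 65733362 to 65742923, fold 8.00) and SRD5A3 (chromosome 4, 55370060 to 55370409, fold 7.33), both also in the 3' untranslated region, came next. ALG1 (stop codon), ALG11 and MAN2A1 each had a peak at fold 7.00, of which that of ALG1 overlaps a peak assigned to EEF2KMT and that of ALG11 one assigned to UTP14C. In the NC list ALG11 had the highest (chromosome 13, 52029675 to 52030072, fold 13), followed by DOLK (chromosome 9, 128945579 to 128946172, fold 12.5), MAN1C1 (chromosome 1, 25783777 to 25784025, fold 10.0), MGAT1 (chromosome 5, 180808693 to 180809801, fold 8.50) and ALG9 (chromosome 11, 111785942 to 111786092, fold 8.33). This ALG11 peak also overlaps a peak assigned to UTP14C.

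Among peaks of genes listed in 1 condition, that of MAN2A1 in MA lay in the 3' untranslated region (chromosome 5, 109865129 to 109867078, fold 7.00, 251 exonic bp), in a gene at 2.88 FPKM in MA cells and 1.50 FPKM in NC cells. That of ALG8 lay in the 5' untranslated region (chromosome 11, 78127434 to 78138904, fold 2.00). In NC, MGAT5B had 2 peaks at its 3' end (chromosome 17, 76949049 to 76949547, fold 4.33, and 76949945 to 76950393, fold 3.00), in a gene at 3.27 FPKM in MA cells and 8.58 FPKM in NC cells. B4GALNT4 had a peak of 596 bp within an exon (chromosome 11, 376665 to 377260, fold 8.00) at 3.35 FPKM in MA cells and 4.17 FPKM in NC cells. The peaks of ALG5 (chromosome 13, 36985711 to 36994995, exon, fold 2.39), DPM3 (chromosome 1, 155140141 to 155140290, 5' untranslated region, fold 2.71) and TUSC3 (chromosome 8, 15764508 to 15764658, 3' untranslated region, fold 1.67) were at folds under 3. MGAT3 had a peak of 150 bp (chromosome 22, 39489560 to 39489709, fold 6) in NC, where its input level was listed at 0. A peak can be listed or missed with the transcript's level, and the part of level in these single-list peaks was not tested.

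At both ends of the input differences with a pseudocount of 1, DPM1 and MAN2A2 had peaks in both lists. MGAT5B had them in the NC list alone. DPM1 had an exon peak in MA that overlapped a start codon peak in NC, and a further 3' untranslated region peak in MA alone (chromosome 20, 50935052 to 50936258, fold 2.04). MAN2A2 had overlapping 3' untranslated region peaks in both lists, 502 bp in 2 MA peaks and 650.0 bp in 1 NC peak. MAN1A2 had 6 peaks and 2455 bp in MA and 4 peaks and 1653 bp in NC. MOGS had 3 peaks and 941 bp in MA and 4 peaks and 1634 bp in NC. STT3B had 2 peaks in each list, of which 1 in each had no partner.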

How the data were processed

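Per the file headers, the deposited gene table holds the authors' FPKM of the MA and the NC input. The 2 deposited peak lists hold, for each peak, a p-value from the authors with its false discovery rate, its fold enrichment as a ratio of immunoprecipitate to input, and its exonic length, per the file headers. Named in the submitters' processing notes are deepTools, ChIPseeker, HISAT, HISAT2, Trimmomatic and the build GRCh38.p13. Peak caller, read counter, annotation release and table filter were not given in the sources used here.

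A pseudocount of 1 FPKM was added before the log2 of MA over NC was taken, and genes under 1 FPKM in both inputs were left out. Whole reads were recovered from the FPKM values: the most frequent ratio of low genes gave the relative depth, and recovered lengths equal to the RefSeq span in 153 genes (33 at the next best total) fixed the totals. Whole numbers within a tolerance of 2e-05 were found for 13054 of the 13055 genes listed above 0 in MA and NC. They are the smallest numbers possible. Recovery was tested on simulated data. Intervals are exact 95% binomial (Clopper-Pearson), or Wald for ratios of 2 genes. They cover counting error only and assume independent reads or peaks. They can be too narrow even for that, since PCR copies are counted as separate reads where no molecular identifiers are used.

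Rows repeating a peak of the same gene were counted once, and starts were raised by 1 to count from 1. Symbols of role groups and surrounding genes, and the members, were chosen with earlier results of these data known. Role groups were limited to the genes the rule took. Of the members, 1 is not reported by name here, though it is counted in the lists; the others could all be named, with the 4 surrounding genes of largest absolute difference. The alternatives were other pseudocounts, filters, scalings, fold minimums and overlaps. Python 3.11.15, NumPy 2.4.6, pandas 2.3.3 and SciPy 1.17.1 were used.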

Additional observations from a re-analysis of the deposited data

How the results depend on the processing

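Every alternative tried kept the median of the tested members below 0. It was -0.41 after rescaling to a median of 0 over all genes, which removes the 0.11 by which all tested genes lay above 0. The share of all tested genes higher by 2-fold was then 7.00% and that lower 4.15%, beside 10.3% and 2.98% unscaled. MAN2A2 and MGAT5B were lower by 2-fold under each setting except the pseudocount of 5, where 0 members were. The count of members lower by 2-fold rose to 3 under a few settings. MGAT4B joined after median rescaling (4.15% of all tested genes) and relative to genes of the same length class (4.19%). ALG1 joined relative to genes of the same level class (4.27%). The count of members higher by 2-fold was 2 with a pseudocount of 0.1 (17.0% of all tested genes), 3 as TPM (17.0%) and 1 relative to genes of the same level class (5.99%), a setting chosen after seeing the data, as were that by length and one without ALG1, ALG10, ALG10B and ALG11, where no count changed. Medians of role groups moved more, and the cause was not tested. Luminal steps turned to -0.31 with genes at 5 FPKM or more, -0.12 relative to length and -0.13 relative to level. Dolichol donors turned to 0.07 as TPM, 0.03 relative to length and 0.02 relative to level. Branching moved to -0.39 with a pseudocount of 5, -0.21 with no filter, -0.55 from 5 FPKM, -0.43 as TPM, -0.61 after median rescaling and -0.77 by length. Trimming moved to -0.27 with no filter, -0.63 from 5 FPKM, -0.36 as TPM, -0.57 after median rescaling, -0.54 by length and -0.49 by level. The oligosaccharyltransferase moved to -0.22 as TPM, -0.43 after median rescaling, -0.26 by length and -0.09 by level. Capping moved to -0.14 with no filter, cytosolic steps to -0.34 from 5 FPKM and -0.29 by level, and the remaining members to -0.59 from 5 FPKM, -0.57 by length and -0.53 by level.

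With peaks at a fold of 3 or more, 20 of 55 members had peaks in both lists, 3 in MA only and 12 in NC only, where 50.5%, 4.94% and 14.9% of all tested genes had. Then 36 member peaks were in the MA list and 48 in the NC list, and 66.7% of those in MA and 54.2% of those in NC had a partner, below the 75.3% and 60.8% of all peaks. With an overlap covering 50% or more of each peak these shares were 53.8% in MA and 51.5% in NC, beside 51.5% and 46.5% of all peaks. No paired analysis was possible because each group held 1 library. Depth limits the members under 1 FPKM most, with 31 reads in MA and 2 in NC for MAN1A1.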
